A study of Saccharomyces cerevisiae with 74 samples.

Results

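The mRNAs described here are those of 10 Saccharomyces cerevisiae membrane proteins that carry or sense glucose, chosen by name among the 6545 protein-coding genes of the RNA-seq tables: the hexose transporters HXT1, HXT2, HXT3, HXT4, HXT5, HXT6 and HXT7, the galactose permease GAL2, and the glucose sensors SNF3 and RGT2. The study crosslinked RNA to 3 translation initiation factors by CRAC (UV crosslinking and analysis of cDNA), and measured mRNA levels by RNA-seq, before and after cells lost glucose or were heated. The factors were eIF4A, an RNA helicase tagged on TIF1 (one of the genes that encode it), its partner eIF4B (TIF3), and the helicase Ded1. All strains were derived from haploid BY4741, and untagged cells served as the CRAC background.

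Cells grew at 30°C in synthetic medium without tryptophan and with 2% glucose. Control cells were harvested directly, mock cells were filtered and returned to glucose medium for 16 min, glucose-withdrawn cells went to medium with 2% glycerol and 2% ethanol for 30 s or 16 min, and heat-shocked cells went to glucose medium at 42°C for 16 min. For eIF4B, 4 control, 3 mock, 2 glucose withdrawal (30 s), 3 glucose withdrawal (16 min), 4 heat shock and 2 heat shock plus cycloheximide libraries were used, cycloheximide being an inhibitor of translation elongation. For Ded1 the numbers were 3 control, 2 mock, 2 and 3 glucose withdrawal (30 s and 16 min) and 3 heat shock libraries. For eIF4A they were 6 control, 4 mock, 3 and 4 glucose withdrawal and 4 heat shock libraries. RNA-seq covered wild type in 3 control, 2 glucose withdrawal (16 min), 3 heat shock and 2 heat shock plus cycloheximide libraries. It also covered strains deleted for SKI2 (a helicase of the cytoplasmic exosome, which degrades RNA from the 3′ end) or XRN1 (the cytoplasmic exonuclease that degrades RNA from the 5′ end), each with 2 control and 2 heat shock libraries. Each deletion is a single strain. RNA-seq libraries A to F were deposited in an earlier block than libraries H to S. All deletion and cycloheximide RNA-seq libraries lie in the later block, where H and I are the only wild-type control and heat shock libraries. Strain and cycloheximide are thus partly confounded with the deposit block, although no label says that the blocks were batches.

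Yeast takes up glucose by facilitated diffusion through Hxt proteins, which differ in affinity. Hxt1 and Hxt3 are low-affinity transporters used when glucose is plentiful, and Hxt2, Hxt6 and Hxt7 are high-affinity transporters used when it is scarce. Snf3 and Rgt2 resemble transporters but act as receptors: through the casein kinases Yck1 and Yck2 and the ubiquitin ligase subunit Grr1 they lead to the loss of Mth1 and Std1, which frees HXT promoters of the repressor Rgt1. A separate pathway, through the kinase Snf1 and the repressor Mig1, shuts off the high-affinity genes when glucose is high.

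HXT6 and HXT7 are nearly identical in sequence, and CRAC reads that matched more than one place were assigned by the authors to one of them by chance; the names of their input files point the same way for RNA-seq. The ratio of HXT6 to HXT7 reads was 0.780 to 0.880 in the 18 RNA-seq libraries, and 0.671 to 1.19 in the 20 CRAC libraries with at least 100 reads on the pair. It lay below 1 in every RNA-seq library, at 0.809 to 0.828 in the wild-type control and 0.870 to 0.880 without glucose, so the RNA-seq counts are not evenly split. How many reads of each gene were placed by chance was not tested, and the pair is therefore also given as 1 sum. In the R64 RefSeq annotation HXT6 (YDR343C) and HXT7 (YDR342C) are neighbours, as are HXT1 (YHR094C) and HXT5 (YHR096C). The other locus tags are YMR011W for HXT2, YDR345C for HXT3, YHR092C for HXT4, YLR081W for GAL2, YDL194W for SNF3 and YDL138W for RGT2.

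The RNA-seq libraries held 26398967 to 46538567 counted S. cerevisiae reads. A further 531145 to 990246 reads, not in that count, came from added Schizosaccharomyces pombe RNA. The tagged CRAC libraries held 183689 to 4385132 reads, and the 4 untagged ones 347 to 46692. XRN1 and SKI2 reads were at most 0.380 and 0.0204 per 1000 S. pombe reads in their deletion strains, against at least 7.73 and 2.29 elsewhere, and HSP104, a heat shock disaggregase gene, was at 668 to 1306 in the 9 heat shock libraries against 23.3 to 39.5 in the 7 controls. One glucose withdrawal library (D) stood apart, with 83.6% of its reads on mRNA. The untagged libraries held 15 reads on HXT3, 8 on GAL2, 3 on HXT5 and 0 on each other member, of 60977 reads in all, and their depth is too low for a rate. Labels of eIF4A library 51 disagree on its time, and it was used at 30 s as its description says.

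Levels of mRNA are given as reads per 1000 S. pombe reads, so that a change in mRNA relative to total RNA stays visible. The S. pombe RNA was added as a fixed share of purified RNA, so a change in the RNA content of a cell would not be seen. In bulk cultures a change in a few cells and a change in all cells cannot be told apart. To compare genes, levels were divided by annotated length. In wild-type control cells HXT3 stood highest at 13.6 ± 1.3 reads per 1000 S. pombe reads and kb (SD, n = 3), and its libraries did not overlap those of any other member. HXT7 (7.60), HXT1 (7.29), HXT2 (6.94) and HXT6 (6.21) followed per kb, and each overlapped the next in that order. Far below, per kb, were HXT4 (1.10), RGT2 (0.745), SNF3 (0.314), HXT5 (0.202) and GAL2 (0.0328), none of which overlapped its neighbour.

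**Figure D1:**
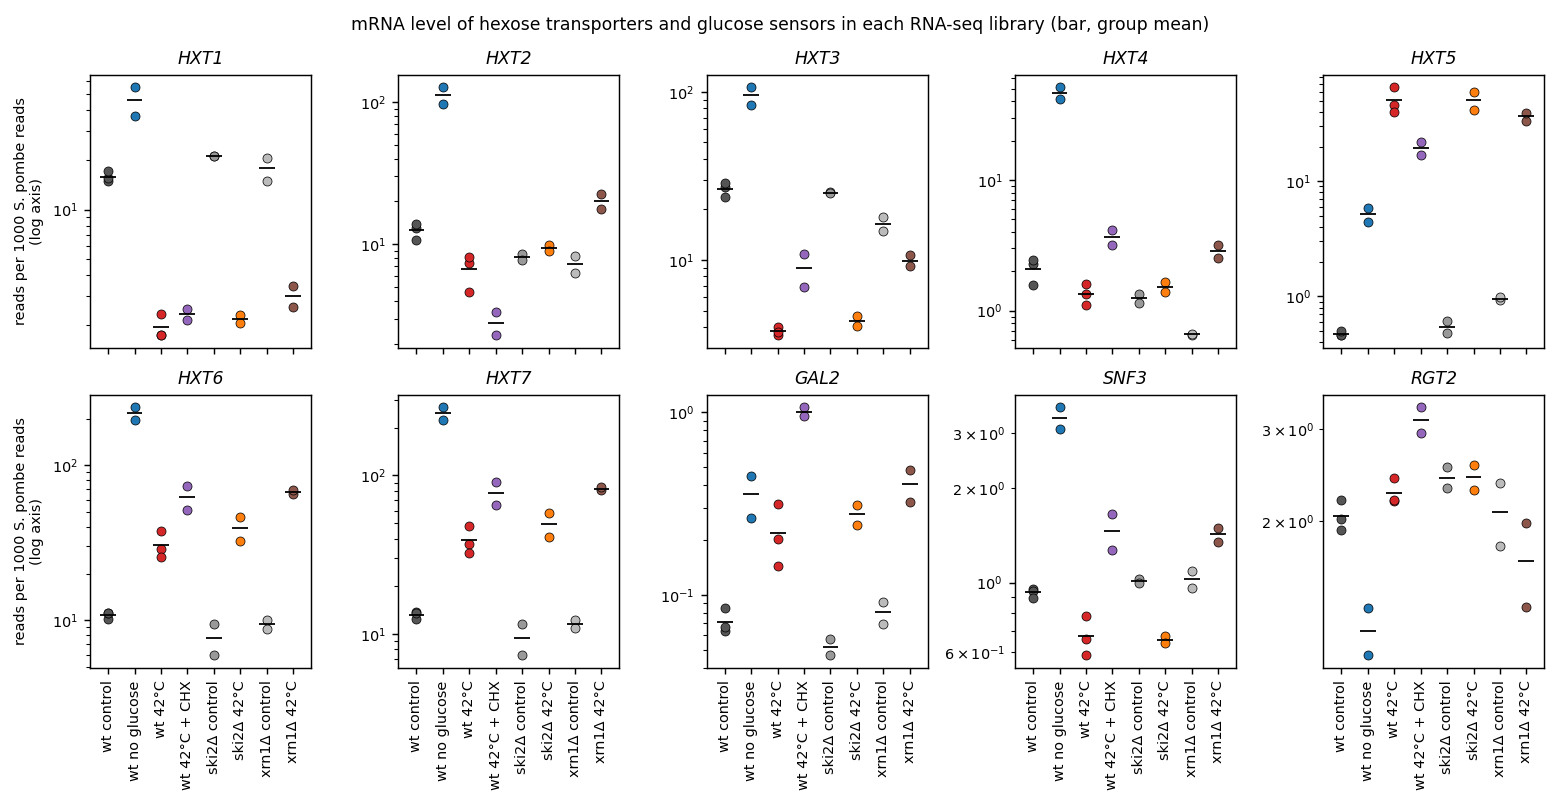
Reads per 1000 S. pombe reads (log axis) for each member in every RNA-seq library, by strain and treatment; points are libraries and bars group means. HXT5 is at 0.460 to 0.498 in the wild-type control libraries and at 40.2 to 65.8 in the wild-type heat shock libraries, and HXT6 and HXT7 are highest after glucose withdrawal.

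After 16 min without glucose, the mRNAs of all 8 transporters and of the sensor SNF3 were higher than in the control, and that of the sensor RGT2 was lower. Of the 10 members 10 passed the test, 9 higher and 1 lower (edgeR quasi-likelihood test, Benjamini-Hochberg adjustment over 6319 genes, threshold 0.05). Over all genes 58.8% passed, 18.4% higher and 40.4% lower. The median log2 fold change was 2.74 over the members and -0.26 over all genes, and trimmed-mean (TMM) scaling moved the latter to 0.01 and the calls over all genes from 1160 higher and 2556 lower to 2041 and 2149. All members kept their direction under each scaling.

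HXT4, a transporter of intermediate to high affinity, changed most. It stood at 2.26, 2.44 and 1.58 reads per 1000 S. pombe reads in control libraries A, B and H, and at 51.6 and 41.4 in libraries C and D. The groups lay far apart, with a log2 fold change of 4.47 ± 0.20 (SE) and an adjusted p of 8.0e-86. HXT6 and HXT7 together went from 22.6, 25.0 and 24.8 to 506 and 419, a log2 fold change of 4.26 ± 0.22 (adjusted p = 9.1e-65). Per kb, HXT7 (141) and HXT6 (124) then stood above all other members.

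HXT2 rose from 13.0, 13.8 and 10.8 to 128 and 96.5 reads per 1000 S. pombe reads (log2 fold change 3.16 ± 0.20). HXT5, a transporter known from slow growth and stress, rose from between 0.460 and 0.498 to 5.83 and 4.46 (3.44 ± 0.21). These genes had control and withdrawal libraries that did not overlap. The low-affinity transporters, which work at high glucose, rose less but in the same direction. HXT1 went from 15.0, 15.5 and 17.1 to 55.3 and 36.7, a log2 fold change of 1.54 ± 0.19 (adjusted p = 6.1e-14). HXT3 went from 27.1, 28.7 and 23.7 to 107 and 83.7, with 1.85 ± 0.20 (adjusted p = 2.9e-18).

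The sensors moved in opposite directions. SNF3, the sensor of low glucose, rose from 0.953, 0.940 and 0.895 to 3.63 and 3.08 reads per 1000 S. pombe reads (log2 fold change 1.85 ± 0.18, adjusted p = 6.2e-21). RGT2, the sensor of high glucose, fell from 1.92, 2.02 and 2.19 to 1.36 and 1.11 (log2 fold change -0.73 ± 0.18, adjusted p = 0.00023). GAL2 rose by 2.32 ± 0.27 on the log2 scale, but from 0.0636, 0.0844 and 0.0667 to 0.448 and 0.262, and per kb it remained the least abundant member (0.162). All 10 calls held when any 1 of the 5 libraries, D included, was left out.

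Heat shock at 42°C in glucose medium moved the members differently: HXT5 rose most, HXT6, HXT7 and GAL2 rose less, and the low-affinity transporters HXT1 and HXT3 fell. Of the 10 members 9 passed the test, 4 higher and 5 lower, where over all genes 80.6% passed, 17.4% higher and 63.3% lower. The median log2 fold change was -0.16 over the members and -0.77 over all genes. TMM scaling moved the median of all genes to 0.13 and the calls from 1097 higher and 3999 lower to 2762 and 2344, so the direction of smaller changes depends on the scale.

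HXT5 went from between 0.460 and 0.498 to 45.8, 40.2 and 65.8 reads per 1000 S. pombe reads in heat shock libraries E, F and I. Its log2 fold change was 6.74 ± 0.23 (adjusted p = 2.7e-123), a 107-fold rise. Per kb it then stood at 21.5 ± 5.7 (SD, n = 3), overlapping HXT7 at 22.4 ± 4.6 and HXT6 at 17.6 ± 3.6.

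HXT1 fell from 15.0, 15.5 and 17.1 to 1.74, 1.74 and 2.35 reads per 1000 S. pombe reads (log2 fold change -3.03 ± 0.19, adjusted p = 4.3e-49). HXT3 fell from 27.1, 28.7 and 23.7 to 4.02, 3.58 and 3.75 (log2 fold change -2.81 ± 0.19, adjusted p = 4.9e-42). Relative to the median of all genes these falls were -2.26 and -2.04. The HXT6 and HXT7 pair rose to 66.0, 57.9 and 85.8 (log2 fold change 1.54 ± 0.19), and GAL2 rose to 0.202, 0.144 and 0.313 (1.62 ± 0.25).

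HXT2, HXT4 and SNF3 lay near the median of all genes, at -0.13, 0.13 and 0.31 from it, so that their values depend on the scale. HXT2 fell by 0.90 ± 0.18 on the log2 scale, and its value was within 0.01 of 0 with TMM. HXT4 fell by 0.64 ± 0.17 and was at 0.26 with TMM. SNF3 fell by 0.46 ± 0.17, was higher with TMM at 0.44 (adjusted p = 0.0013), and lost its call without library E (adjusted p = 0.085). RGT2 had a log2 fold change of 0.15 ± 0.16 (adjusted p = 0.39), from 1.92, 2.02 and 2.19 to 2.18, 2.19 and 2.41. That was 0.92 above the median of all genes, and with TMM RGT2 passed as higher, at 1.05 (adjusted p = 1.7e-09).

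Set directly against glucose withdrawal, heat shock left 8 members lower and 2 higher, HXT5 (log2 fold change 3.30 ± 0.23) and RGT2 (0.87 ± 0.18). All 10 passed, as did 69.7% of all genes, 11.4% higher and 58.3% lower (2209 higher and 2087 lower with TMM, in place of 721 and 3686). HXT4 differed most, at -5.11 ± 0.20. GAL2 differed by -0.70 ± 0.25 (adjusted p = 0.0096), a call lost without library C (adjusted p = 0.51) or F (0.11).

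Summed over the 8 transporters, mRNA was far higher without glucose and moderately higher on heating, and its make-up changed in both. The sum was 78.5 to 86.0 reads per 1000 S. pombe reads in wild-type control cells, 682 to 854 without glucose and 109 to 168 at 42°C. It made up 0.150% to 0.174% of mRNA reads in the control and 2.09% to 2.10% without glucose. HXT1 and HXT3 held 19.4% and 32.4% of transporter reads in the control on average, 5.92% and 12.4% without glucose, and 1.46% and 2.90% at 42°C. HXT6 and HXT7 held 29.6%, 60.4% and 52.1% in the same order, and HXT5 0.583%, 0.669% and 37.4%.

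**Figure D2:**
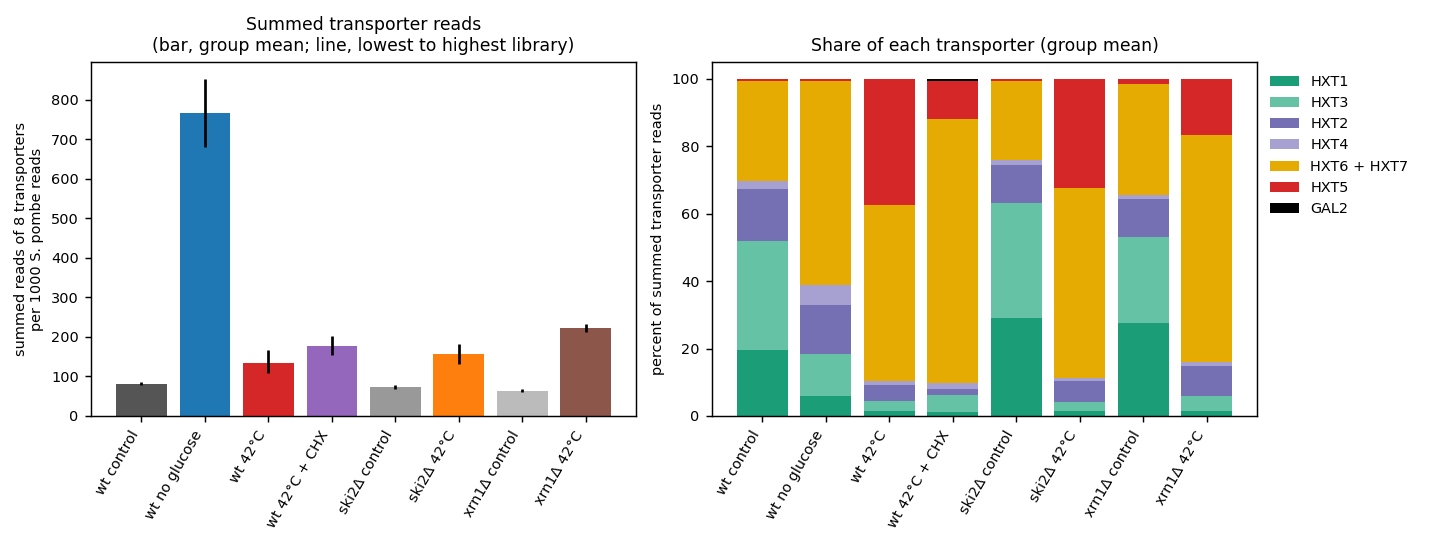
Left, reads summed over HXT1 to HXT7 and GAL2 per 1000 S. pombe reads (bars, group means; lines, lowest to highest library); right, the percent of that sum from each gene (group means). The HXT6 and HXT7 share is 60.4% without glucose, and HXT5 appears as a large share in heat shock, at 37.4% in wild type.

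Cycloheximide during heat shock raised most mRNAs, so members are read against that shift. The median log2 fold change of cycloheximide against heat shock alone was 1.02 over all genes and 1.00 over the members, and 9 members passed, 7 higher and 2 lower. Of all genes 81.7% passed, 78.8% higher and 2.88% lower. The members that fell were HXT5, from 45.8, 40.2 and 65.8 to 22.0 and 17.0 reads per 1000 S. pombe reads (log2 fold change -1.38 ± 0.21), and HXT2, from 7.38, 4.59 and 8.12 to 2.30 and 3.32 (-1.25 ± 0.21). Neither gene's libraries overlapped. GAL2 rose most, to 0.949 and 1.07 (2.20 ± 0.25). HXT4 rose by 1.44 ± 0.18 and HXT3 by 1.24 ± 0.20, and HXT1, at 2.15 and 2.51, had a log2 fold change of 0.26 ± 0.20 (adjusted p = 0.21). With TMM scaling, which gave 2135 genes higher and 2045 lower in place of 4982 and 182, HXT6 was at 0.02 and HXT7 at -0.0039, RGT2 turned from 0.46 to -0.52 and HXT1 to -0.72, and the calls of HXT3 and SNF3 were lost (adjusted p = 0.11 and 0.37). The RGT2 call was also lost without library O (adjusted p = 0.12).

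Without stress, the members called in the deletion strains depended on the scale. In cells lacking Ski2, HXT4 alone passed the test, at 1.33 and 1.15 against 1.58 to 2.44 reads per 1000 S. pombe reads (log2 fold change -0.76 ± 0.19, adjusted p = 0.035), where 0.253% of all genes passed, 0.222% higher and 0.0317% lower. That call was lost without library A, B, K or P (adjusted p up to 0.97), and with a term for the deposit block. Control library H, deposited in the same block as the deletion libraries, stood at 1.58. In cells lacking Xrn1, 4 members passed, 1 higher and 3 lower, against 54.4% of all genes, 42.6% higher and 11.8% lower (1957 higher and 2262 lower with TMM, in place of 2694 and 745). HXT4, at 0.648 and 0.665, had a log2 fold change of -1.67 ± 0.20, and HXT2 (-0.78 ± 0.21) and HXT3 (-0.69 ± 0.20) were lower too. HXT5, at 0.930 and 0.985, was higher by 1.01 ± 0.21. With TMM 7 members passed, HXT6 (-0.56), HXT7 (-0.56) and RGT2 (-0.35) being lower too. The HXT3 call was lost without library M (adjusted p = 0.075).

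The heat shock response of most members differed in cells lacking Xrn1. The test of that difference (the interaction of deletion and heat shock) passed for 7 members, 6 with a more positive and 1 with a more negative response, where 24.7% of all genes passed, 12.0% and 12.6%. The median interaction was 1.10 over the members and -0.07 over all genes. HXT4 differed most, with an interaction of 2.75 ± 0.27 log2 units (adjusted p = 2.4e-19). It went from 0.648 and 0.665 to 2.52 and 3.15 reads per 1000 S. pombe reads in the deletion. In wild type it stood at 1.58 to 2.44 in the control and 1.10 to 1.59 at 42°C, and these libraries overlapped. Control library H and heat shock library I, deposited with the deletion libraries, stood at 1.58 and 1.59.

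HXT2 went from 6.33 and 8.23 to 17.8 and 22.6 in cells lacking Xrn1, against 10.8 to 13.8 and 4.59 to 8.12 in wild type, an interaction of 2.37 ± 0.29 (adjusted p = 2.3e-13). HXT3 fell in the deletion only from 14.8 and 18.1 to 9.19 and 10.7, with an interaction of 2.08 ± 0.29 (adjusted p = 1.3e-10). Both thus ended at higher levels than in heat-shocked wild-type cells, and their libraries did not overlap those of wild type. The pair of HXT6 and HXT7 (1.30 ± 0.30) and SNF3 (0.93 ± 0.27) also had positive interactions.

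HXT5 went the other way. It rose from 0.930 and 0.985 to 33.5 and 39.5 reads per 1000 S. pombe reads, a log2 fold change of 5.25 ± 0.27 against 6.74 ± 0.23 in wild type, and an interaction of -1.48 ± 0.29 (adjusted p = 1.0e-05). For HXT1 the interaction was 0.47 ± 0.28 (adjusted p = 0.22), for GAL2 0.69 ± 0.40 (0.20) and for RGT2 -0.46 ± 0.25 (0.18). All 7 calls held with any 1 library left out.

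At 42°C all 10 members differed between cells lacking Xrn1 and wild type, 8 higher and 2 lower, where 53.9% of all genes passed, 41.3% higher and 12.6% lower (1910 higher and 2146 lower with TMM, in place of 2609 and 794). HXT2 differed most, at 1.59 ± 0.20 on the log2 scale. The lower members, HXT5 (-0.47 ± 0.20, adjusted p = 0.039) and RGT2 (-0.44 ± 0.18, adjusted p = 0.031), lost their calls without library N (adjusted p = 0.25 and 0.48) or library I (0.34 and 0.073). HXT5 also lost it without S (0.054) and RGT2 without E (0.051), and the calls of HXT1 and GAL2 were lost without S (0.16 and 0.14).

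In cells lacking Ski2 no member passed these tests with the S. pombe scale. At 42°C 0 of 10 members differed from wild type by edgeR's quasi-likelihood test, 1 had an unadjusted p below 0.05, DESeq2 called 0, and 2.18% of all genes passed, 1.82% higher and 0.364% lower. The interaction passed for 0 members, 4 had an unadjusted p below 0.05, and DESeq2 on the S. pombe scale called 0, where 0.0317% of all genes passed. With its own size factors DESeq2 called 4, all more positive than in wild type: HXT2 (1.27, adjusted p = 0.0046), HXT4 (1.08, 0.015), HXT6 (0.98, 0.039) and HXT7 (0.96, 0.039). By edgeR 3 members were called without library I and 2 without library H. Heat shock itself changed 7 members in these cells, 4 higher and 3 lower (80.0% of all genes, 15.0% and 65.0%), with HXT5 going from 0.611 and 0.477 to 59.2 and 41.9 (log2 fold change 6.54 ± 0.28). In cells lacking Xrn1 it changed 9 members, 7 higher and 2 lower (80.4% of all genes, 13.0% and 67.5%). SNF3 in cells lacking Ski2 (-0.62) and HXT3 in cells lacking Xrn1 (-0.73) turned positive with TMM scaling, at 0.42 and 0.21. In cells lacking Ski2, HXT2 (0.21), HXT4 (0.28) and RGT2 (0.01), which were not called, were called as higher with TMM, at 1.24, 1.32 and 1.04. TMM gave 2586 genes higher and 2320 lower in place of 949 and 4107 for ski2, and 2189 and 2358 in place of 819 and 4264 for xrn1.

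**Figure D3:**
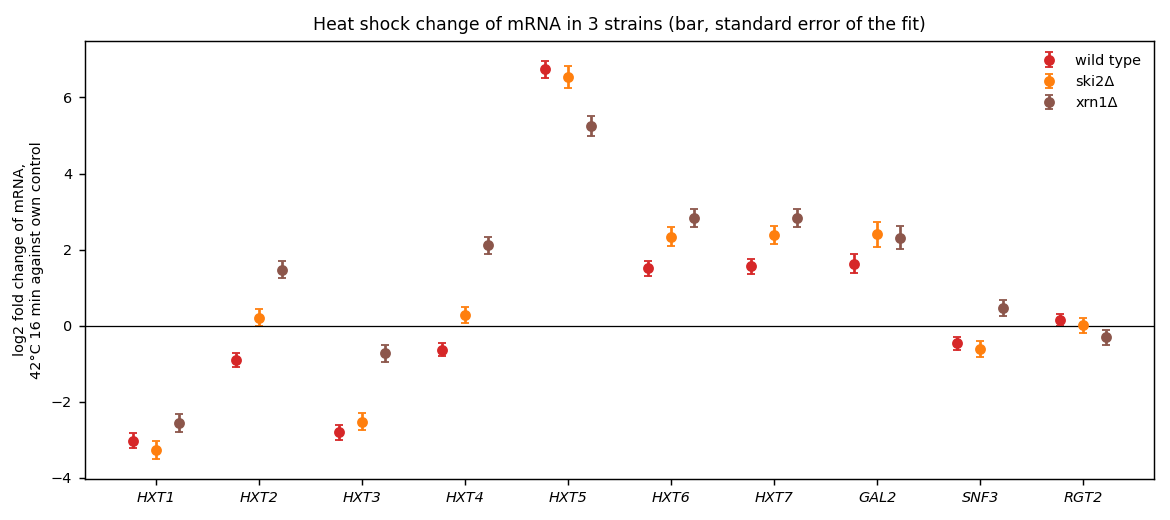
log2 fold change of mRNA at 42°C against the same strain's control, for each member in wild type and in cells lacking Ski2 or Xrn1; bars are standard errors of the fit. HXT2 and HXT4 reach 1.47 and 2.11 in the xrn1 deletion, and HXT5 is lower there (5.25) than in wild type (6.74); the directions of HXT4 and SNF3 in wild type, SNF3 in ski2 and HXT3 in xrn1 flip with TMM scaling.

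CRAC reads are given per 1000000 counted reads (RPM), which follow both the amount of an mRNA and how often the factor is crosslinked to it. RPM values also fall when reads on other RNA classes make up more of a library. For eIF4B mRNA held 62.5% to 70.6% of counted reads in the control. Without glucose it held 15.3% and 16.8% at 30 s and 20.0% to 24.0% at 16 min. With mRNA reads as the scale, the eIF4B medians at 30 s and 16 min were -0.20 and -0.09, in place of -2.24 and -1.75. The median CRAC change over all mRNAs was negative in every stress, and members are read against it. In control cells HXT3 stood at 178, 222, 187 and 171 RPM for eIF4B, 88.2, 157 and 128 for Ded1, and 0 to 197 (median 114) for eIF4A. HXT5 stood at 1.84 to 21.6 for eIF4B, 1.08 to 14.4 for Ded1 and 0 to 27.9 for eIF4A. The eIF4A control library 52, with the fewest counted reads of its group (242631), held no read on 9 of the members.

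The mock shift passed for 0 members with each factor by edgeR's quasi-likelihood test, where 0.0360% (eIF4B), 0% (Ded1) and 0% (eIF4A) of all mRNAs passed. Unadjusted p-values below 0.05 were found for 0, 2 and 1 members, and DESeq2 called 0 in each. Some members nevertheless had mock and control libraries that did not overlap. For eIF4B this was 1 member (7.47% of all mRNAs), HXT3, at 71.4, 97.1 and 71.1 RPM after the mock shift against 171 to 222 (log2 fold change -1.25 ± 0.81, adjusted p = 1.0). For Ded1 they were 5 members (20.7% of all mRNAs), HXT1 and HXT2 with higher and HXT3, HXT6 and HXT7 with lower values after the mock shift. The Ded1 reads on the HXT6 and HXT7 pair stood at 10.9 and 17.4 RPM, below 56.5, 68.9 and 232 in the control (-3.05 ± 0.83, adjusted p = 1.0). The stress comparisons were therefore also fitted with the mock libraries in place of the control, a choice made after seeing the data.

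At 30 s without glucose few members passed the test. For eIF4B the median log2 fold change was -2.21 over the members and -2.24 over all mRNAs. HXT5 alone passed the test, as lower (10.7% of all mRNAs did, 0.0180% higher and 10.7% lower). It held 0 reads in libraries 72 and 73, against 1.84 to 21.6 RPM in the control, at least 6.09-fold lower by a floor of 3 reads over the group. That bound rests on library 21, with 33 of the 42 control reads: it was 1.89 without it, and 9.24 without library 71. Set against the mock libraries HXT5 was not called (adjusted p = 0.18). The call was lost without library 21, 72 or 73 (adjusted p up to 0.22) and with TMM scaling (0.66), which left 0 mRNAs called in place of 594, and with mRNA reads as the scale (0.57). HXT1, with 3.32 and 2.11 RPM, lay below all 4 control libraries at 16.5 to 60.7 (adjusted p = 0.066).

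For Ded1 at 30 s 0 members passed (8.16% of all mRNAs did, and the median log2 fold change was -1.30 over the members and -0.97 over all mRNAs), 3 had an unadjusted p below 0.05, and DESeq2 called 2. For eIF4A 0 members passed and 0% of all mRNAs did, 2 had an unadjusted p below 0.05, and DESeq2 called 1. HXT6 held 0 reads in the 3 eIF4A libraries, at least 4.50-fold lower than in the control (2.75 without library 13). RGT2 held 0 too, at least 8.99-fold lower (4.54 without library 18, the highest control library at 59.2 RPM). Control library 52 held 0 of both, so the groups overlapped. HXT2 went the other way, at 115, 41.1 and 0 RPM against 0 to 24.6 in the control (log2 fold change 2.83 ± 1.92, adjusted p = 0.47). SNF3 did not pass the filter on low counts for eIF4A, so 9 members were tested there.

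By 16 min without glucose, reads on the HXT6 and HXT7 pair stood above the control for all 3 factors, while the median mRNA stayed below in RPM. With mRNA reads as the scale that median was -0.09 for eIF4B. For eIF4B the pair held 88.2, 47.1, 88.2 and 22.0 RPM in control libraries 08, 21, 26 and 71, and 696, 599 and 435 after withdrawal. The groups did not overlap, and the log2 fold change was 3.24 ± 0.82 (adjusted p = 0.0045) where the median of all mRNAs was -1.75. HXT6 and HXT7 passed as separate rows too (adjusted p = 0.014 and 0.0089), and RGT2 passed as lower, so 3 of 10 members were called where 18.3% of all mRNAs were, 0.792% higher and 17.5% lower. The median of the members was 1.24. TMM scaling gave 63 mRNAs higher and 48 lower in place of 44 and 973. Against the mock libraries HXT6 (4.36) and HXT7 (4.38) passed again, HXT5 passed as higher (3.97, adjusted p = 0.011) and the RGT2 call was lost (0.097).

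For Ded1 the pair held 56.5, 68.9 and 232 RPM in the control and 250, 154 and 1745 after withdrawal, so that the groups overlapped. In each run of adjoining library numbers the withdrawal library held more than the control library (250 in 59 against 56.5 in 57, 154 in 62 against 68.9 in 61, and 1745 in 67 against 232 in 65), although no label says that these runs were batches. With a term for libraries up to 63 against those from 65 on, HXT6 was at 2.23 (adjusted p = 0.017) and HXT7 at 2.28 (0.026), and against the mock libraries they were at 5.58 and 5.73. Library 67, at 1745, carried much of the change: the log2 fold change was 2.61 ± 0.68 (adjusted p = 0.029) with it, and the separate rows fell to 0.74 and 0.85 without it (adjusted p = 0.47 and 0.40). The calls were also lost without library 57 (adjusted p = 0.12 and 0.11) or 61 (0.15 and 0.12), and that of HXT7 without 65 (0.052). HXT6 and HXT7 were the 2 members called, where 3.90% of all mRNAs were, 0.431% higher and 3.47% lower (84 higher and 39 lower with TMM, in place of 25 and 201). The median log2 fold change was 1.48 over the members and -0.71 over all mRNAs.

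For eIF4A the pair held 323, 418, 480 and 604 RPM after withdrawal against 0 to 52.6 (median 5.18) in the 6 control libraries. The groups did not overlap, but the log2 fold changes of HXT6 (5.01 ± 1.74) and HXT7 (4.48 ± 1.73) had adjusted p-values of 0.15. By edgeR's test 0 members passed and 0.144% of all mRNAs did, 2 members had an unadjusted p below 0.05, and DESeq2 called 2.

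Between 30 s and 16 min without glucose the pair went from 3.32 and 23.2 to 435 to 696 RPM for eIF4B (log2 fold change 5.45 ± 1.23, adjusted p = 0.0083), from 33.8 and 10.5 to 154 to 1745 for Ded1 (5.03 ± 0.92, adjusted p = 0.0076), and from 0, 1.17 and 1.11 to 323 to 604 for eIF4A (8.75 ± 2.38, adjusted p = 0.21). These comparisons share the 16 min libraries with those above. For eIF4B HXT5, HXT6 and HXT7 passed as higher (1.19% of all mRNAs did, 1.03% higher), HXT5 being at least 24.1-fold higher than at 30 s by the floor of 3 reads. Of its 83 reads at 16 min 61 were in library 22 and 0 in library 09, and without library 22 the bound was 13.2. Without library 72 or 73 none of these eIF4B calls held (adjusted p from 0.15 to 0.39), and without 09 or 22 HXT6 (0.058 and 0.073), and without 09 HXT7 (0.052), lost theirs. Fewer members were called in this eIF4B comparison with a term for library series. For Ded1 HXT6 and HXT7 passed as higher (1.53% of all mRNAs did, 1.45% higher), both losing their call without library 70 (adjusted p = 0.055 and 0.064) and HXT7 without 67 (0.085). For eIF4A 0 members passed by edgeR's test (0.144% of all mRNAs did), 5 had an unadjusted p below 0.05 and DESeq2 called 3.

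**Figure D4:**
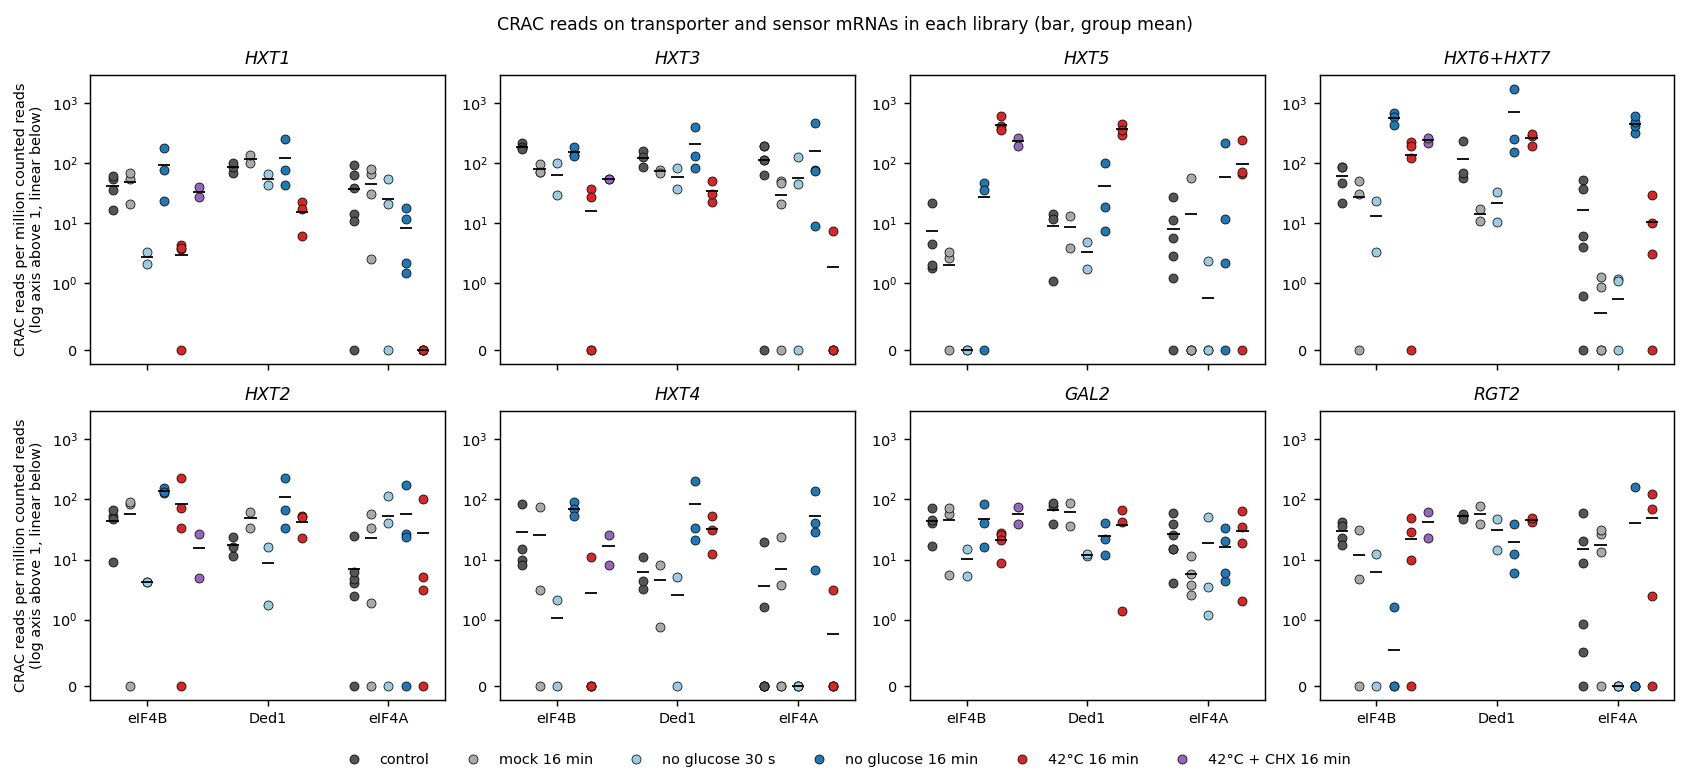
CRAC reads per 1000000 counted reads (log axis above 1, linear below) on 8 rows, by factor and condition; points are libraries and bars group means. HXT5 is highest at 42°C for eIF4B and Ded1, and the HXT6 and HXT7 pair is higher at 16 min than at 30 s without glucose for all 3 factors.

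After heat shock the CRAC reads on HXT5 rose and those on HXT1 and HXT3 fell. For eIF4B HXT5 held 1.84, 21.6, 4.58 and 2.00 RPM in the control and 379, 604, 422 and 359 at 42°C. The groups lay well apart, with a log2 fold change of 5.78 ± 0.92 (adjusted p = 1.5e-06). For Ded1 it went from 1.08, 14.4 and 11.9 to 297, 450 and 353 (5.38 ± 0.89, adjusted p = 3.4e-05).

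HXT3 went from 178, 222, 187 and 171 to 0, 0, 37.1 and 27.3 RPM for eIF4B, a log2 fold change of -3.30 ± 0.80 (adjusted p = 0.0013). For Ded1 it went from 88.2, 157 and 128 to 22.6, 31.2 and 50.2 (-1.85 ± 0.56, adjusted p = 0.014), a call lost without library 60, 61 or 63 (adjusted p = 0.076, 0.061 and 0.054). HXT1 fell from 16.5, 54.9, 60.7 and 36.6 to 4.30, 0, 3.71 and 3.97 RPM for eIF4B (-3.61 ± 1.11, adjusted p = 0.013) and from 69.9, 85.9 and 101 to 22.6, 17.3 and 6.19 for Ded1 (-2.45 ± 0.63, adjusted p = 0.0041). None of these groups overlapped. Against the mock libraries the HXT3 calls were lost for eIF4B (-2.06, adjusted p = 0.053) and Ded1 (-1.09, adjusted p = 0.19), while HXT1 passed as lower (-3.79 and -2.93) and HXT5 as higher (7.91 and 5.42) for both, and HXT6 (4.15) and HXT7 (4.27) passed as higher for Ded1.

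For each of these factors 3 of 10 members were thus called, 1 higher and 2 lower, where 25.9% of all mRNAs passed for eIF4B (2.39% higher, 23.5% lower) and 26.8% for Ded1 (3.76% and 23.0%). With TMM scaling the eIF4B calls of HXT1 (adjusted p = 0.11) and HXT3 (0.058) and the Ded1 call of HXT3 (0.072) were lost, while HXT5 passed in each. HXT7 then passed as higher for eIF4B (2.39), and HXT2 (1.99), HXT4 (3.05), HXT6 (2.02) and HXT7 (2.05) passed as higher for Ded1, beside HXT1 as lower (-1.56). TMM gave 211 mRNAs higher and 585 lower for eIF4B in place of 133 and 1308, and 540 and 819 for Ded1 in place of 218 and 1335. The median log2 fold change was -0.60 over the members and -1.45 over all mRNAs for eIF4B, and 0.48 and -0.82 for Ded1.

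For eIF4A 0 members passed at 42°C by edgeR's quasi-likelihood test (7.52% of all mRNAs did, 0.659% higher and 6.86% lower), 2 had an unadjusted p below 0.05 and DESeq2 called 2. In simulated data for this comparison, genes changed by -4 on the log2 scale were called in 0% of cases, and those changed by 4 in 15.7%. HXT1 held 0 reads in the 4 heat shock libraries, at least 29.1-fold lower than in the control (adjusted p = 0.060). That bound was 22.4 without library 11. HXT3 held 7.40, 0, 0 and 0 RPM (adjusted p = 0.058). The control ran from 0 to 94.3 RPM for HXT1 and from 0 to 197 for HXT3, so the groups overlapped. HXT5 held 248, 65.8, 0 and 71.4 RPM against 0 to 27.9 in the control (log2 fold change 3.51 ± 1.85, adjusted p = 0.18).

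Cycloheximide with heat shock gave 0 called members for eIF4B against heat shock alone (7.40% of all mRNAs passed), 1 with an unadjusted p below 0.05 and 1 called by DESeq2. HXT1 stood at 27.7 and 39.6 RPM against 0 to 4.30 (log2 fold change 3.28 ± 1.21, adjusted p = 0.088). HXT5 stood at 266 and 197 RPM against 359 to 604 (-0.93 ± 0.94, adjusted p = 0.63). Both cycloheximide libraries and heat shock library 98 were counted with a later version of the annotation than the other CRAC libraries. Only in these did counted reads, the RPM scale, exceed mapped reads. They were 612647 against 487625 in library 97, 2016599 against 1546750 in 98 and 4139812 against 3488961 in 99. Whether their RPM values are on the same scale as the rest was not tested.

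The CRAC change of a member can be set beside its mRNA change in wild type. At 42°C the CRAC change minus the mRNA change had a median of -0.68 log2 units over 5545 mRNAs for eIF4B and -0.04 over 5788 for Ded1. HXT5, whose mRNA rose most, was at -0.95 and -1.35, above 40.8% and 10.4% of mRNAs. HXT2 was at 1.77 and 2.18, above 96.6% and 98.6% of mRNAs: its mRNA level was lower at 42°C, a fall not kept with TMM scaling, and its CRAC reads were not called. Its eIF4B libraries ran from 0 to 223 RPM at 42°C and from 9.18 to 67.5 in the control. For Ded1 they ran from 23.0 to 53.1 and from 11.5 to 23.9, so the groups overlapped for each factor. HXT4 was above 99.4% of mRNAs for Ded1 (2.94) and above 11.6% for eIF4B (-2.28). At 16 min without glucose the corresponding medians were -1.40 and -0.45, and HXT6 and HXT7 were at -1.13 and -0.91 for eIF4B and at -1.73 and -1.55 for Ded1. These differences are descriptions, with no test.

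**Figure D5:**
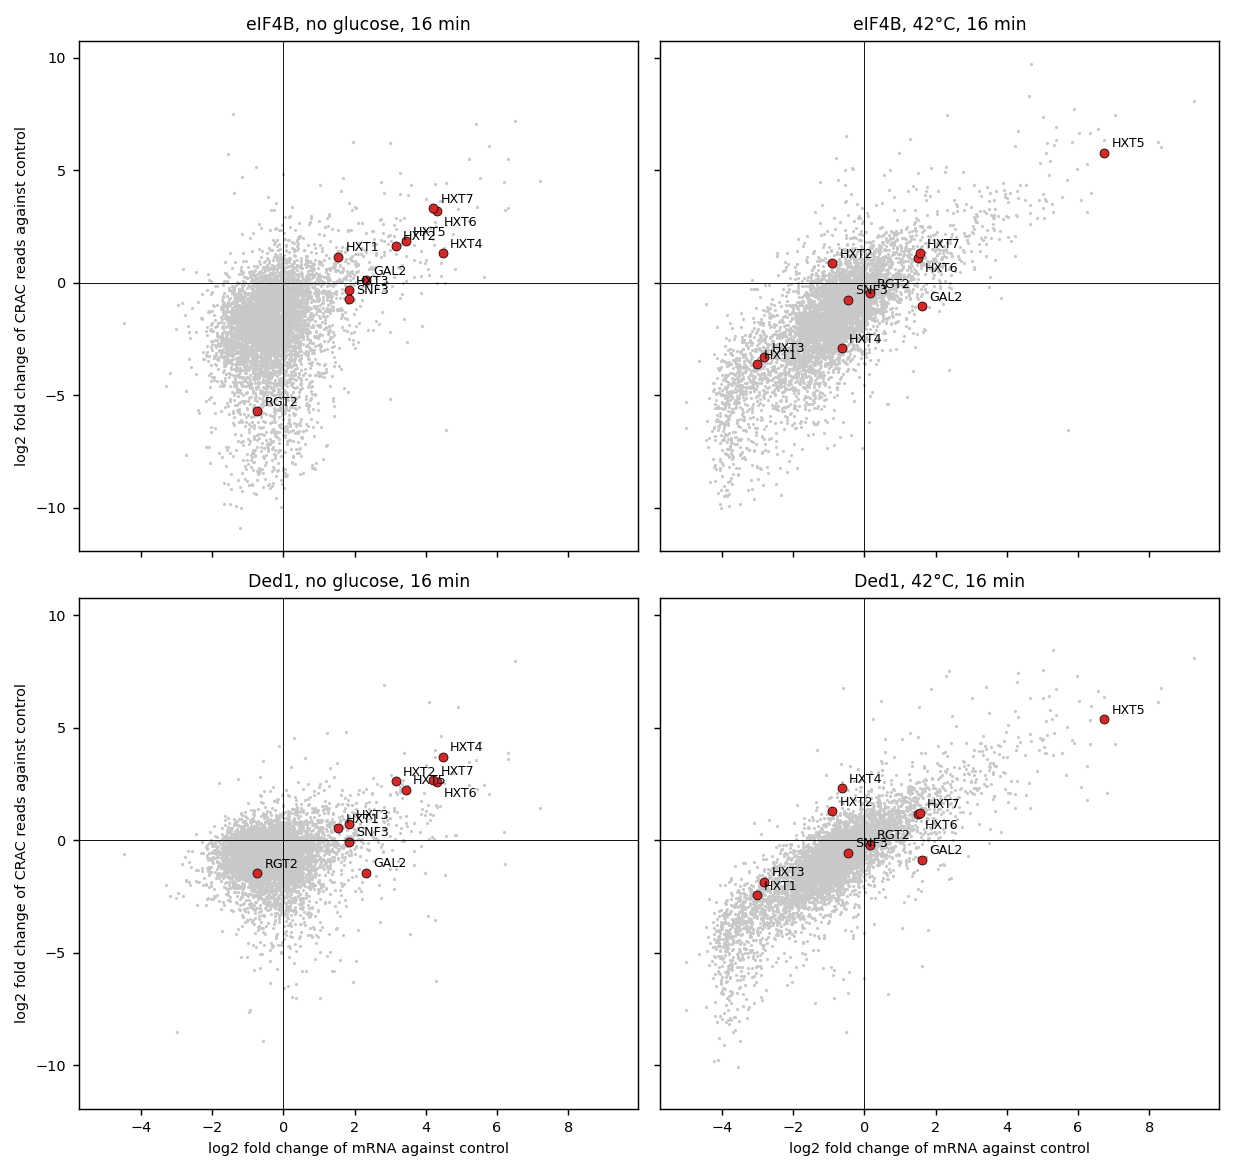
log2 fold change of CRAC reads (vertical) against log2 fold change of mRNA (horizontal), each against its own control, for eIF4B and Ded1 at 16 min without glucose or at 42°C; grey points are all mRNAs tested in both and red points the members. HXT5 lies far to the upper right at 42°C and HXT1 and HXT3 to the lower left, while GAL2 lies right of 0 on the mRNA axis and at or below 0.12 on the CRAC axis in all 4 panels.

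GAL2 had many CRAC reads for its amount of mRNA. Its control libraries held 40.4, 71.2, 45.8 and 17.0 RPM for eIF4B, 78.5, 86.3 and 38.7 for Ded1, and 4.12 to 59.6 (median 20.5) for eIF4A. Its mRNA, the lowest of the members per kb, rested on 44 to 63 reads in each wild-type control library. In the ratio of mean control RPM to mean mRNA level GAL2 ranked 37 of 6028 mRNAs for eIF4B, 27 of 6132 for Ded1 and 58 of 5949 for eIF4A. The ratio was 609, 948 and 370, where the medians of all mRNAs were 11.8, 15.2 and 7.16. Among the 4 untagged libraries, 1 held 8 GAL2 reads (171 RPM, above every tagged control library) and the others 0, at a depth too low for a firm rate. Reads per collapsed cDNA on GAL2 were 1.43 in the 13 control libraries, against 1.37 over all mRNAs. The part that background or randomly placed reads play in the GAL2 signal, or in that of HXT3 with its 15 untagged reads, was not tested. GAL2 was called in no CRAC comparison, and its mRNA was called in each wild-type RNA-seq comparison. At 16 min without glucose and at 42°C its CRAC log2 fold changes were 0.12 and -1.05 for eIF4B and -1.44 and -0.86 for Ded1. They were -0.73 and 0.19 for eIF4A, and its mRNA rose by 2.32 and 1.62. In simulated data at 42°C, a log2 fold change of 2 was called for 20.8% (eIF4B), 40% (Ded1) and 0% (eIF4A) of changed genes. A change of -2 was called for 2.44%, 22.7% and 0% in the same order. In simulated RNA-seq data without glucose each was called for 100%. These rates do not say why GAL2 was not called in CRAC.

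Among the sensors, RGT2 had reads for eIF4B in all 4 control libraries, at 42.2, 35.9, 22.9 and 17.5 RPM, and at 16 min without glucose held 1 read in 3 libraries, at 0, 0 and 1.64 RPM. The ratio of pooled rates was 0.0150, with a 95% exact interval of 0.000378 to 0.0852 that covers counting error only. The call (adjusted p = 0.034) was lost without library 09, 21 or 22 (adjusted p = 0.091, 0.058 and 0.10) and with TMM scaling (0.24). For Ded1 RGT2 stood at 12.5, 5.93 and 39.8 RPM after withdrawal and 53.3, 56.6 and 47.7 before (log2 fold change -1.47 ± 0.72, adjusted p = 0.24). SNF3 stood at 3.00 to 27.5 RPM for eIF4B and 12.0 to 35.7 for Ded1 in the control, and was called in no CRAC comparison.

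Other genes of the pathways were counted from lists of general knowledge, and each count is to be read against the 18.4% of all genes higher and 40.4% lower without glucose, and the 17.4% and 63.3% at 42°C. The median log2 fold change over all genes was -0.26 and -0.77 in the same order. Among 9 other hexose transporters, 4 rose without glucose and 0 fell (0 at an unadjusted p below 0.05 and 0 by DESeq2), led by HXT13 (log2 fold change 1.75) and HXT10 (1.61). At 42°C 7 rose, led by HXT10 (3.59) and HXT13 (3.22), and 1 fell, HXT8 (-0.60), which turned to 0.30 with TMM scaling. The medians of this list were 1.03 and 1.46. These mRNAs are scarce, HXT10 being at 0.0121 to 0.0202 reads per 1000 S. pombe reads in the control, and several are close copies of one another, so that reads may be split among them.

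In the glucose induction pathway 2 of 6 genes rose and 2 fell without glucose, where 58.8% of all genes were called, and the median was -0.02. MTH1, the corepressor that holds HXT genes off with Rgt1, rose from 0.730 to 0.742 to 12.0 to 16.4 reads per 1000 S. pombe reads (log2 fold change 4.27, adjusted p = 5.2e-85). At 42°C 0 rose (0 at an unadjusted p below 0.05 and 0 by DESeq2) and 4 fell, where 63.3% of all genes fell, and the median, -0.79, was close to that of all genes. YCK1 (-1.22) led, and MTH1, STD1 and YCK2 turned positive with TMM scaling, at 0.12, 0.10 and 0.06. In CRAC at 16 min without glucose, Ded1 called 1 of the 6 genes, MTH1 as higher (log2 fold change 3.70, adjusted p = 0.023). Of all mRNAs 0.431% were higher and 3.47% lower there. For eIF4B 0 were higher and 2 lower, STD1 (-7.67, adjusted p = 0.011) and RGT1 (-4.72, 0.023), where 0.792% and 17.5% of all mRNAs were. For eIF4A 0 were called.

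In the glucose repression pathway 4 of 13 genes rose and 1 fell without glucose, where 18.4% and 40.4% of all genes did, and the median was 0.23, MIG3 (1.25), SIP2 (1.10) and MIG2 (1.03) rising and TUP1 (-0.92) falling most. With TMM scaling 9 rose and 1 fell. At 42°C 7 fell and 1 rose, where 63.3% and 17.4% of all genes did, and the median was -0.48. The falls were led by the repressor genes MIG2 (-2.54), MIG3 (-2.31) and MIG1 (-1.75) and the hexokinase gene HXK2 (-1.44), against 4 and 8 with TMM scaling. The response of MIG1, MIG2 and MIG3 to heat also differed in cells lacking Xrn1, with interactions of 2.11, 0.98 and 1.31 among 4 genes called as more positive (12.0% of all genes) and 0 as more negative (0 at an unadjusted p below 0.05 and 0 by DESeq2).

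Among 8 genes of transporter endocytosis 2 rose and 2 fell without glucose, and 2 rose and 4 fell at 42°C, or 6 and 1 with TMM scaling, against 58.8% of all genes called without glucose and 80.6% at 42°C. The medians were -0.08 and -0.27. CSR2, an arrestin-related adaptor of the ubiquitin ligase Rsp5, rose in both (log2 fold change 3.05 and 1.16). In the galactose regulon 3 of 6 genes rose and 1 fell without glucose, led by GAL4 (2.67) and GAL7 (1.73), and 3 rose and 2 fell at 42°C, led by GAL7 (2.14) and GAL10 (1.39), with GAL1 (-0.63) turning to 0.27 with TMM scaling. The medians were 0.65 and 0.43, and 58.8% and 80.6% of all genes were called. For comparison GAL2 rose by 2.32 and 1.62.

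Genes whose mRNA followed a member most closely over the 8 RNA-seq group means were sought among 5395 genes by Pearson's r of log2 levels. These points share libraries and the S. pombe scale. For HXT1 they were HXK2 (r = 0.982), MIG2 (0.976) and ISA1 (0.968), and for HXT3 HOS3 (0.967), VPS8 (0.964) and MIP1 (0.958). For HXT5 they were FMP45 (0.992), ALD2 (0.992) and RNY1 (0.991), and for the HXT6 and HXT7 pair MRK1 (0.990), CAT8 (0.987) and GSY1 (0.984). HXT2 had the least close neighbours, HEM15 (0.930), SUC2 (0.864) and YKR075C (0.863).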

How the data were processed

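The authors deposited counts of reads per feature, as whole numbers, from pyReadCounters 1.4.2: sense reads for CRAC and reads of the opposite strand for RNA-seq, aligned with Novoalign to an intronless EF4.74 genome, joined for RNA-seq with that of S. pombe. CRAC reads with several positions were placed at random, and PCR duplicates were collapsed. RNA-seq was of poly(A)-selected RNA. The RPKM values the authors deposited were used only to derive annotated lengths. Of the 56 CRAC files 53 used annotation version 5.4 and 3 version 5.6.

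Rows without a gene name (at most 0.0181% of reads) were dropped. Genes passing filterByExpr (minimum count 10, minimum total 15) were fitted with edgeR 4.0.16 (R 4.3.3) quasi-likelihood functions, all RNA-seq libraries in 1 fit and all conditions of a factor in another, with summed S. pombe reads or all counted reads as library size, and p-values adjusted by Benjamini-Hochberg over all genes tested (threshold 0.05). Standard errors were derived from the F statistic. Alternatives included DESeq2 1.42.0, TMM, mRNA totals, no filter, cDNA counts, batch terms, leaving out each library and, added after seeing the data, mock libraries as the CRAC control. Scripts were tested on simulated data. Every member is described, pathway lists give counts and up to 4 genes, and likeness used genes reaching 1 read per 1000 S. pombe reads in a group mean. Members and lists were chosen with earlier results of these data known. RNA-seq replicates were biological duplicates by the study's methods; no label says that CRAC replicates were separate cultures, so p-values measure the spread between libraries.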

Additional observations from a re-analysis of the deposited data

Results flagged for a closer look

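In 7 members, the nearly identical HXT6 and HXT7 counted apart, the change in mRNA on heat shock differed between cells lacking Xrn1 and wild type. This was by the interaction term of edgeR's fit, which passed for 24.7% of all genes, 12.0% more positive and 12.6% more negative. The interaction was 2.37 log2 units for HXT2, 2.08 for HXT3, 2.75 for HXT4, -1.48 for HXT5, 1.33 for HXT6, 1.27 for HXT7 and 0.93 for SNF3.

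CRAC reads on HXT4 at 42°C moved in opposite directions between factors, a difference that was not tested. Every Ded1 library lay above the Ded1 control mean (difference of means 25.8 RPM), while every eIF4B library lay below its own control mean (-26.1 RPM) and every eIF4A library below its own (-2.79 RPM). The Ded1 libraries did not overlap, at 3.24 to 11.1 RPM in the control and 12.2 to 53.0 at 42°C. The eIF4B and eIF4A directions rest on single control libraries. Library 08 held 45 of the 89 eIF4B control reads, and without it the control mean was 10.8994 RPM, just under heat shock library 98 (10.9095). Library 80 held 38 of the 40 eIF4A control reads, and without it the mean was 0.322, below heat shock library 54 (3.11).

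Single libraries stood far from the rest of their group in 21 of the 58 sets of 4 to 6 values tested. A chance rate of about 1 in 20 would hold for normally distributed values only. Many of these sets hold few reads and repeated values of 0, so no chance rate can be set beside the count. In the eIF4B control, library 08 was highest for HXT4 (82.6 RPM) and SNF3 (27.5), and library 21 for HXT5 (21.6). In eIF4B heat shock, library 98 was highest for HXT4 (10.9) and SNF3 (19.3), and library 56 lowest for HXT1 (0). In the eIF4A control, library 76 was highest for HXT2 (24.6), 80 for HXT4 (19.8) and 18 for RGT2 (59.2). In eIF4A mock libraries, 81 was highest for HXT4 (23.8) and HXT5 (57.2) and 77 for SNF3 (34.5). In eIF4A glucose withdrawal at 16 min, library 12 was highest for HXT2 (177) and RGT2 (164), 45 for HXT3 (475) and SNF3 (119.9), and 14 for HXT5 (220.1). In eIF4A heat shock, library 15 was highest for HXT2 (104) and HXT3 (7.40), 54 for HXT4 (3.11) and 83 for SNF3 (4.08). Many of these values rest on few reads.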

How the results depend on the processing

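Numbers of members called changed by over 1.5 times as follows, with the main number first. With TMM scaling it went from 1 to 0 for ski2 against wild-type control, 4 to 7 for xrn1 against wild-type control, 1 to 0 for eIF4B at 30 s, 2 to 4 for Ded1 at 16 min without glucose and 3 to 6 for Ded1 at 42°C. With mRNA reads as the scale it went from 1 to 0 for ski2 control and eIF4B at 30 s and from 3 to 5 for Ded1 at 42°C. DESeq2 with its own size factors gave 2 for ski2 control, 7 for xrn1 control and 4 for the ski2 interaction (main 0), and on the S. pombe scale 0 for ski2 control. For CRAC DESeq2 gave 4 for eIF4B at 30 s, 6 for eIF4B at 16 min against 30 s (main 3), 1 for eIF4B with cycloheximide (main 0), 2 for Ded1 at 30 s (main 0), 4 for Ded1 at 16 min, 5 for Ded1 at 16 min against 30 s (main 2), and 1, 2, 2 and 3 for eIF4A at 30 s, at 16 min, at 42°C and at 16 min against 30 s (main 0 each). Fits of the compared groups only gave 0 for ski2 control, 4 for eIF4B at 30 s, 0 for Ded1 at 16 min against 30 s, 2 for eIF4A at 42°C and 1 for eIF4A at 16 min against 30 s. Without a filter Ded1 gave 1 at 30 s, 5 at 16 min and 5 at 16 min against 30 s. cDNA counts gave 0 for eIF4B at 30 s, 1 and 4 for Ded1 at 30 s and 16 min, and 1 for eIF4A at 42°C. A deposit block gave 0 for ski2 control, and a library series term gave 0 for eIF4B at 30 s, 1 for eIF4B at 16 min against 30 s, and 2, 5 and 4 for Ded1 at 30 s, at 42°C and at 16 min against 30 s. Summing HXT6 and HXT7 gave 1 in place of 2 for Ded1 at 16 min and at 16 min against 30 s, since they become 1 row.

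Leaving out 1 library, the number ranged from 0 to 1 for ski2 control, ski2 at 42°C against wild type, eIF4B at 30 s, Ded1 at 30 s and eIF4A at 42°C, from 0 to 3 for the ski2 interaction and eIF4B at 16 min against 30 s, from 0 to 2 for Ded1 at 16 min and from 1 to 5 for Ded1 at 16 min against 30 s.

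Directions reversed in 12 values, each for RNA-seq. With TMM and with DESeq2's own size factors, HXT4 (0.26 and 0.18) and SNF3 (0.44 and 0.36) at 42°C in wild type, SNF3 at 42°C in ski2 (0.42 and 0.36) and HXT3 at 42°C in xrn1 (0.21 and 0.19) turned positive. With cycloheximide RGT2 turned negative with TMM (-0.52), DESeq2's size factors (-0.47) and mRNA totals (-0.020), and HXT7 with TMM (-0.0039). The cause of the other changes was not tested. The placement of library 51 at 30 s or 16 min, or leaving it out, moved no number of members called. No paired analysis was possible because the libraries carry numbers or letters of their own, which no 2 groups share, and the deposit and library series terms above are batch terms, not pairs. With the mock libraries in place of the control, chosen after seeing the data, eIF4B at 30 s went from 1 member called to 0. CRAC values of 0 to 3 reads in a group give bounds or counting intervals only.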
